A study of Mus musculus with 12 samples.

Results

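Genes of T cell costimulation, 10 in number, were followed through the 4 groups of the series: the B7 ligands Cd80 and Cd86, the CD28 family receptors Cd28 and Icos, the TNF receptor family members Cd27, Tnfrsf4 (OX40), Tnfrsf8 (CD30), Tnfrsf9 (4-1BB) and Tnfrsf18 (GITR), and the TNF family ligand Cd40lg. They were chosen by function and found by gene symbol and Ensembl ID, 10 of 38924 gene IDs counted, and all 10 passed the filter on low counts. The samples were splenic CD4+ T cells of C57BL/6 mice aged 8 to 12 weeks, either wild type (WT) or STINGgt/gt. The study's methods describe the starting cells as naive T cells sorted from spleen by flow cytometry. All cells had been expanded for 2 days with antibodies to CD3 and CD28, so every group, controls included, had received a CD28 signal, and were rested for 1 day before treatment. WT cells and STINGgt/gt cells were each treated for 16 h with DMSO, the solvent, or with CMA, a small acridanone that activates mouse STING, and 3 libraries were sequenced for each of the 4 groups, 12 in all. The Goldenticket allele gt is a missense mutation of the STING gene that leaves no functional protein, and the labels call these cells STING KO. The study calls the 3 libraries of a group biological replicates, without saying whether these were separate mice or separate cultures, and the p-values measure the spread between them.

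A T cell that meets its antigen through the T cell receptor needs further signals to divide and survive. CD28 supplies the first of these when it binds CD80 or CD86 on an antigen-presenting cell, and ICOS and the receptors of the TNF family prolong or shape the response through kinases and TRAF adaptors. CD40L works in the other direction, since the T cell uses it to activate B cells and dendritic cells, while CD80 and CD86 are also made at low levels by activated T cells.

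Each library held between 27414450 and 43784910 reads assigned to genes. Levels are given in CPM, the read count scaled to a common library size with TMM factors, and levels of different genes are set side by side only per kilobase of exon. Within a group the libraries differed by more than counting noise (chi-square per degree of freedom 2.63 to 29.9), and WT DMSO replicates 2 and 3 stood furthest apart. Transcripts of the STING gene itself, Tmem173, were present in all groups (186 ± 3.86 CPM in WT DMSO, 305 ± 10.1 in WT CMA, 173 ± 7.10 in STINGgt/gt DMSO and 176 ± 7.54 in STINGgt/gt CMA, SD, n = 3), and since a missense allele need not alter the transcript level, these values do not check the labels. T cell markers (8 genes, Cd4 among them) summed to 2490 to 2737 CPM in WT DMSO, 2337 to 2378 in WT CMA, 2649 to 2686 in STINGgt/gt DMSO and 2603 to 2697 in STINGgt/gt CMA. With CMA, 5 of the 8 were called lower and 1 higher in WT, and the part of this shift in the results for the members was not tested. Other lineages were not absent: 7 B cell markers summed to 709 to 781 CPM in WT DMSO, 806 to 897 in WT CMA, 317 to 330 in STINGgt/gt DMSO and 334 to 347 in STINGgt/gt CMA, while 9 myeloid and dendritic cell markers summed to no more than 21.3 CPM in any library. Since these are bulk libraries, fewer cells of a type and less RNA per cell cannot be told apart.

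Start regions are shown first for those members that changed most with CMA among the ones with a promoter window, because these genes moved in opposite directions and their sequences can be compared base by base. Promoter windows of 300 bases (RefSeq, GRCm38.p6, 250 bases before to 50 after the start) were found for 6 of the 10 members. Of these, Cd80, Cd27 and Tnfrsf18 rose with CMA in WT cells and Tnfrsf8 fell, as described further on. The windows are chr16:38458683-38458982 on the plus strand for Cd80, chr6:125236978-125237277 on the minus strand for Cd27, chr4:156026072-156026371 on the plus strand for Tnfrsf18 and chr4:145315115-145315414 on the minus strand for Tnfrsf8. Capitals mark matches to any of 4 motifs searched on both strands.
Cd80: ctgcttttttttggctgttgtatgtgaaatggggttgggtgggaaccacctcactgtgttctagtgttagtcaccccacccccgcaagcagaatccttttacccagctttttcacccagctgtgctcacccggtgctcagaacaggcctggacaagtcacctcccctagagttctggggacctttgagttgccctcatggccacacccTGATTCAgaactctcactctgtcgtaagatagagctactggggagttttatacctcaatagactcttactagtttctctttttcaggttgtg
Cd27: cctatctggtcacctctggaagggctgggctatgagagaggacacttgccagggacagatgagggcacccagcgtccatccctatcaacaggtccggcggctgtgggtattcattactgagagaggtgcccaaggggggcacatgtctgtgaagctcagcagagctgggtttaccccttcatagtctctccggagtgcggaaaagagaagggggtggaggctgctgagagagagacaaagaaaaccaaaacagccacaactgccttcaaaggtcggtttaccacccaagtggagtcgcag
Tnfrsf18: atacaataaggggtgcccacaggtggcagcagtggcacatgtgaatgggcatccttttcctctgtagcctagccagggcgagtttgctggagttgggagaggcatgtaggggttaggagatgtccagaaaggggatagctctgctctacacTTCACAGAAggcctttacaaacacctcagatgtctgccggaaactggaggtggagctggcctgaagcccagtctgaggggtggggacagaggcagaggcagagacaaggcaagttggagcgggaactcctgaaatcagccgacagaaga
Tnfrsf8: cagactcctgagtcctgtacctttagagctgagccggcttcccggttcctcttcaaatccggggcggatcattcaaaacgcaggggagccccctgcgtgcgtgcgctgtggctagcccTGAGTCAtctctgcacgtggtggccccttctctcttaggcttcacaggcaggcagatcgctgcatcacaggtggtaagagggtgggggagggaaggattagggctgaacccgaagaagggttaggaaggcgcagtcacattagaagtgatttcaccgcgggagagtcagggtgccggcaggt

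The letters searched were GGGANNTTC (kB-like), GAAANNGAA (IRF-like), TTCNNNGAA (STAT-like) and TGANTCA (AP-1-like), and they occur in 3.94%, 8.56%, 8.3% and 7.81% of the 32851 promoters of the table. Cd80, which rose, and Tnfrsf8, which fell, each held 1 AP-1-like match, TGATTCA beginning at position -42 from the Cd80 start and TGAGTCA beginning at -132 from the Tnfrsf8 start. Tnfrsf18 held the STAT-like letters TTCACAGAA, beginning at -99. Its RefSeq start and this match lie inside the gene by the deposited positions. Tnfrsf4 held an IRF-like match on its minus strand (TTCAGTTTC, from -225). The RefSeq start of Tnfrsf4 lies before the first base of the gene in the deposited table. The second of the Tnfrsf9 windows held a STAT-like match (TTCCAAGAA, from -136) and an AP-1-like match (TGAGTCA, from -15). Both Tnfrsf9 windows lie inside the gene by the deposited positions. The window of Cd27 held none of the 4 motifs, and none of the members' windows held the kB-like letters, which says only that these letters are not in these windows. Promoters of Cd28, Icos, Cd40lg and Cd86 were not analysed here.

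The first comparison asks what CMA did to these genes in WT cells. In its cell assays the study reports apoptosis of WT CD4+ T cells after overnight CMA, and not of STINGgt/gt cells. The part of cell death in the levels given here was not tested. The B7 ligands and some TNF family receptors rose, whereas CD30, CD40L and, to a small extent, ICOS fell. Of the 10 members, 4 were higher with CMA (Cd80, Cd27, Cd86, Tnfrsf18) and 4 lower (Tnfrsf8, Cd40lg, Icos, Tnfrsf9) at an adjusted p under 0.05 by edgeR's quasi-likelihood test. Over all 13811 genes tested, 33.0% were called higher and 37.4% lower, so most genes of these cells were called and the share of members called is close to this background. The median absolute log2 change of the members was 0.918, beside 0.391 over all genes tested.

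**Figure D1:**
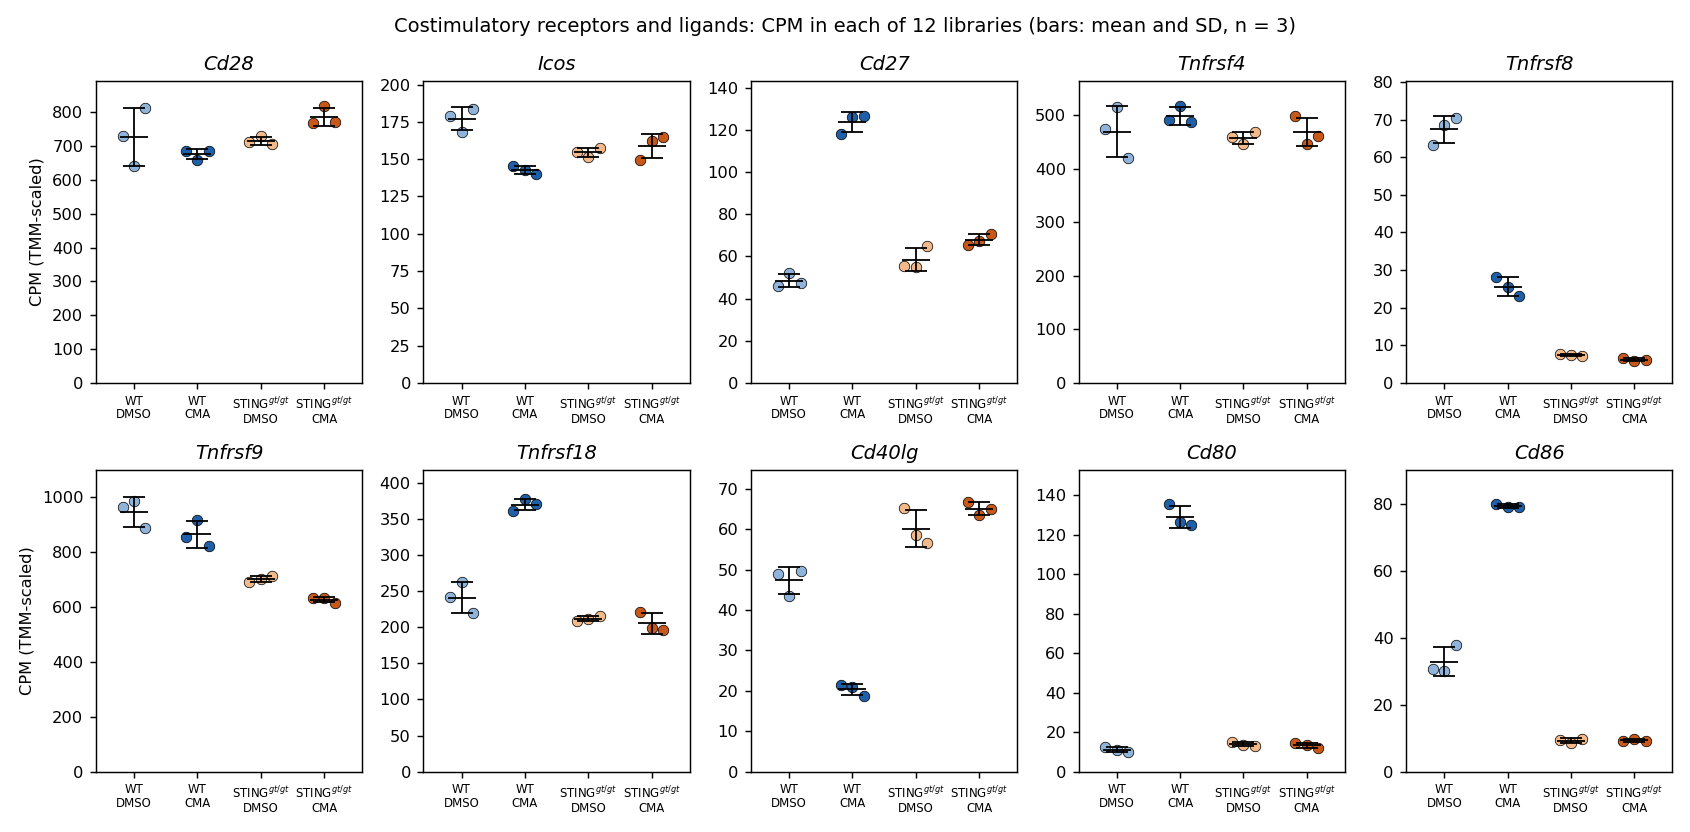
Levels of the 10 members in each of the 12 libraries, in CPM on TMM-scaled library sizes (vertical axis, from 0, scale differs between panels), with points for libraries and bars for the mean and SD of the 3 libraries of a group. The WT CMA libraries lie far above the 3 other groups for Cd80 and below all of them for Cd40lg, while for Tnfrsf8 both STINGgt/gt groups lie below both WT groups.

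Among the B7 ligands, Cd80 made the largest change of any member. The gene lies on chromosome 16 (38458933 to 38486933, plus strand, GRCm38) and encodes the ligand that binds both CD28 and the inhibitory receptor CTLA-4. In WT DMSO the 3 libraries held 12.3, 10.9 and 9.75 CPM, and in WT CMA 135, 127 and 124.9 CPM. In STINGgt/gt they held 15.2, 13.5 and 13.1 CPM with DMSO and 14.5, 13.3 and 12.1 CPM with CMA. Only the 3 WT CMA libraries were thus high, with no overlap with any other group. CMA raised Cd80 11.8-fold in WT (log2 3.57, SE 0.0804, edgeR adjusted p = 1.425e-15), the 157th largest rise among the 13811 genes tested. In STINGgt/gt the log2 change was -0.07 (95% confidence interval -0.25 to 0.11, edgeR adjusted p = 0.7809).

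Cd86, the second B7 ligand, lies 1789 kb away on the same chromosome (36603869 to 36666081, minus strand). Its libraries held 30.8, 30.2 and 37.8 CPM in WT DMSO and 80.1, 79.2 and 79.1 CPM in WT CMA. With STINGgt/gt they held 9.53, 8.57 and 9.83 CPM with DMSO and 9.18, 9.70 and 9.09 CPM with CMA. Cd86 therefore differed from Cd80 in that WT cells were already high without CMA, and the 4 groups formed 3 levels, with the STINGgt/gt groups overlapping each other. The rise in WT was 2.402-fold (log2 1.26, SE 0.0699, edgeR adjusted p = 8.886e-11). Per kilobase of exon the order of the B7 ligands in WT turned around, from 2.96 ± 0.346 CPM per kb for Cd80 and 8.99 ± 1.16 for Cd86 with DMSO to 34.8 ± 1.5 and 21.7 ± 0.148 with CMA (SD, n = 3). In STINGgt/gt Cd80 was the higher of the B7 ligands under both treatments, at 3.77 and 2.54 CPM per kb with DMSO.

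B cells and myeloid cells also express CD80 and CD86, so their markers are set beside these values, although the sort of naive T cells should have removed such cells. With CMA in WT, 5 of 7 B cell markers were called higher and none lower, with log2 changes from -0.04 (Ighm, edgeR adjusted p = 0.5266) to 1.12 (Ms4a1, edgeR adjusted p = 4.904e-11). Of the 9 myeloid and dendritic cell markers 6 could be tested, of which 1 was higher and 3 lower, and their sum was 17.98 to 18.97 CPM with DMSO and 19.0 to 21.3 with CMA. Siglech was at 0 in both WT groups and Fcgr1 in WT DMSO. The part of other cells in the B7 ligand levels was not tested.

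The CD28 family receptors moved little. Cd28, the primary costimulatory receptor (chromosome 1, 60716800 to 60773359, plus strand), was read at 729, 641 and 813 CPM in WT DMSO and 686, 660 and 685 in WT CMA. The STINGgt/gt libraries held 712, 730 and 707 CPM with DMSO and 769, 818 and 772 with CMA. The WT groups overlapped and the log2 change was -0.10 (95% confidence interval -0.24 to 0.03, edgeR adjusted p = 0.1481). The WT DMSO libraries spread widely, and without WT DMSO replicate 2 the change of Cd28 was -0.19 (edgeR adjusted p = 0.001288), while without WT DMSO replicate 3 it was -0.007154 (edgeR adjusted p = 0.9078). In STINGgt/gt the groups did not overlap, CMA being the higher, but the log2 change of 0.13 did not pass the threshold (95% confidence interval 0.0014 to 0.27, edgeR adjusted p = 0.38).

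Icos, the inducible receptor that supports help to B cells, lies 204.6 kb beyond Cd28 on chromosome 1 (60977927 to 61000320, plus strand), with Ctla4 between them. Its libraries held 179, 168 and 184 CPM in WT DMSO and 145, 143 and 140 CPM in WT CMA. The STINGgt/gt libraries held 155, 151 and 158 CPM with DMSO and 149, 162 and 165 with CMA. All WT CMA libraries were below all WT DMSO libraries, a modest fall of 0.31 on the log2 scale (SE 0.0472, edgeR adjusted p = 1.743e-05), while the STINGgt/gt groups overlapped.

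The receptors of the TNF family went separate ways. Cd27, which sustains T cell survival and memory (chromosome 6, 125232622 to 125237010, minus strand), stood at 46.1, 52.2 and 47.4 CPM in WT DMSO and 118, 126 and 127 CPM in WT CMA. The STINGgt/gt libraries held 55.3, 55.2 and 64.9 CPM with DMSO and 65.6, 67.4 and 70.8 CPM with CMA. CMA raised Cd27 2.55-fold in WT (log2 1.35, SE 0.0643, edgeR adjusted p = 1.359e-11). In STINGgt/gt all 3 CMA libraries were also above all 3 DMSO libraries, but the log2 change of 0.22 did not pass the threshold (95% confidence interval 0.08 to 0.35, edgeR adjusted p = 0.1226). The exons of Cd27 overlap Mir8113 on the same strand over 129 bases.

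Tnfrsf18, which encodes GITR, a receptor abundant on regulatory and activated T cells, lies on chromosome 4 (156026164 to 156028895, plus strand). It held 241, 263 and 219 CPM in WT DMSO and 362, 377 and 371 CPM in WT CMA. With STINGgt/gt the libraries held 209, 211 and 215 CPM with DMSO and 222, 199 and 196 with CMA. The WT CMA libraries were above all others, and the rise in WT was 1.54-fold (log2 0.62, SE 0.0598, edgeR adjusted p = 1.043e-07). Its exons overlap Gm16008 on the opposite strand over 414 bases, and the strand setting of the counting is not given in the sources used here.

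Tnfrsf4, the gene of OX40, ends 9.6 kb before Tnfrsf18 on the same strand of chromosome 4 (156013843 to 156016612). It did not share the rise of its neighbour: its libraries held 474, 516 and 420 CPM in WT DMSO and 491, 518 and 489 in WT CMA. In STINGgt/gt they held 459, 447 and 468 CPM with DMSO and 498, 447 and 463 with CMA. The WT groups overlapped, as did the STINGgt/gt groups, and the log2 change in WT was 0.09 (95% confidence interval -0.04 to 0.22, edgeR adjusted p = 0.2215). Without WT DMSO replicate 2 the change of Tnfrsf4 was 0.15 (edgeR adjusted p = 0.01718), while without WT DMSO replicate 3 it was 0.02 (edgeR adjusted p = 0.7019).

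Tnfrsf8 encodes CD30, a receptor of activated T and B cells (chromosome 4, 145267137 to 145315164, minus strand). The WT libraries held 63.3, 68.5 and 70.3 CPM with DMSO and 28.2, 25.5 and 23.1 CPM with CMA. The STINGgt/gt libraries held 7.73, 7.36 and 7.03 CPM with DMSO and 6.65, 5.86 and 6.16 CPM with CMA. CMA lowered Tnfrsf8 2.63-fold in WT (log2 -1.39, SE 0.0672, edgeR adjusted p = 1.585e-11), and the WT CMA libraries still lay above every STINGgt/gt library. Markers of CD8 T and natural killer cells moved in the same direction in WT, 4 of 6 being called lower with CMA and 1 higher, and their sum was 74.7 to 79.2 CPM with DMSO and 65.8 to 69.8 CPM with CMA. Their part in the falls of Tnfrsf8 and Cd40lg was not tested. In STINGgt/gt the 3 CMA libraries were below the 3 DMSO libraries, but the log2 change of -0.25 did not pass the threshold (95% confidence interval -0.45 to -0.05, edgeR adjusted p = 0.2396).

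Tnfrsf9 encodes 4-1BB, which promotes survival after activation (chromosome 4, 150914562 to 150946102, plus strand), and was one of the most abundant members. It held 963, 987 and 885 CPM in WT DMSO and 854, 915 and 820 CPM in WT CMA. The STINGgt/gt libraries held 692, 701 and 713 CPM with DMSO and 633, 632 and 614 CPM with CMA. The WT groups overlapped, and the small change in WT (log2 -0.13, SE 0.0484, edgeR adjusted p = 0.02394) lost its call in 10 of 20 alternative settings, where the edgeR, DESeq2 or limma adjusted p reached up to 0.1668. Among them were the settings without WT DMSO replicate 1 (Tnfrsf9 adjusted p 0.1083), WT DMSO replicate 2 (0.06677), WT CMA replicate 1 (0.07091) and WT CMA replicate 3 (0.1273). In STINGgt/gt the CMA libraries lay below the DMSO libraries, with a change of like size that did not pass the threshold (log2 -0.17, 95% confidence interval -0.27 to -0.06, edgeR adjusted p = 0.1243).

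Cd40lg, the ligand through which helper T cells activate CD40-bearing cells, is the one X-linked member (57212143 to 57224042, plus strand). Its libraries held 49.0, 43.4 and 49.6 CPM in WT DMSO and 21.4, 20.9 and 18.8 CPM in WT CMA. The STINGgt/gt libraries held 65.3, 58.6 and 56.6 CPM with DMSO and 66.8, 63.5 and 65.1 CPM with CMA. CMA lowered Cd40lg 2.33-fold in WT (log2 -1.22, SE 0.0687, edgeR adjusted p = 1.162e-10), with no overlap of the WT groups, whereas the STINGgt/gt groups overlapped.

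The order of levels per kilobase of exon in WT DMSO ran from Tnfrsf9 (347 ± 19.5 CPM per kb) and Tnfrsf4 (344 ± 35.0), whose libraries overlapped, through Tnfrsf18 (158 ± 14.3), Cd28 (119 ± 14.1), Icos (51.6 ± 2.31) and Cd40lg (37.9 ± 2.71) to Cd27 (20.9 ± 1.38) and Tnfrsf8 (19.5 ± 1.06), which also overlapped, and then Cd86 and Cd80. With CMA in WT no neighbours in the order overlapped. Cd27 had moved above Icos (53.1 ± 2.07 against 41.6 ± 0.824), Cd80 had passed Cd86, and Cd40lg (16.3 ± 1.09) and Tnfrsf8 (7.41 ± 0.738) stood last. In both STINGgt/gt groups Tnfrsf4 was first and Tnfrsf8 last, at 2.13 ± 0.101 CPM per kb with DMSO and 1.80 ± 0.116 with CMA.

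The same treatment of STINGgt/gt cells tests whether these changes occur without functional STING. By edgeR none of the 10 members passed the threshold in either direction, beside 0.398% of all genes called higher and 0.920% lower, and the members' log2 changes lay between -0.25 and 0.22. At an unadjusted p under 0.05 there were 4 members (Cd28, Cd27, Tnfrsf8 and Tnfrsf9). DESeq2 called 1 higher (Cd27) and 1 lower (Tnfrsf9), and limma on the deposited log2 table called none. The call of Cd27 was also gained without WT DMSO replicate 2 (edgeR adjusted p = 0.0281), WT DMSO replicate 3 (0.04892) or STINGgt/gt DMSO replicate 3 (0.03425), and that of Tnfrsf9 without WT DMSO replicate 2 (0.04388) or 3 (0.02584). Fitting the replicate number as a block gained both (Cd27 edgeR adjusted p = 0.0207 and Tnfrsf9 0.02989).

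**Figure D2:**
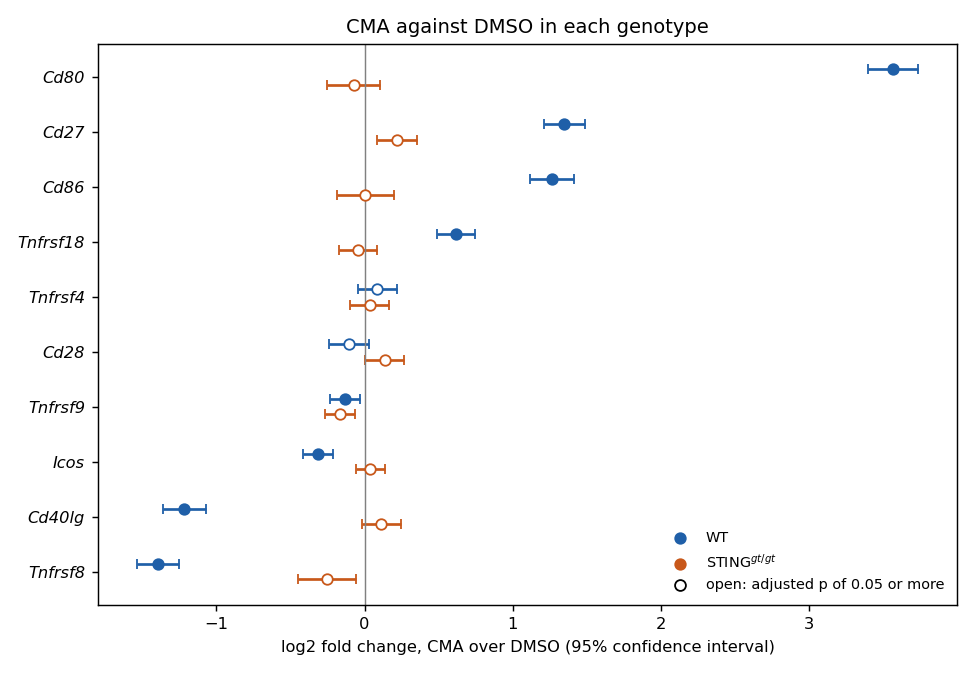
Log2 fold change of CMA over DMSO (horizontal axis) for each member in WT and STINGgt/gt cells, 3 libraries a group, with 95% confidence intervals from edgeR and filled points for an adjusted p under 0.05. The WT points run from -1.39 for Tnfrsf8 to 3.57 for Cd80, and all STINGgt/gt points are open and lie between -0.25 and 0.22.

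The difference of the CMA effect between the genotypes was tested directly as an interaction. It was higher in WT for 4 members and lower for 4, beside 27.2% and 31.6% of all genes tested. The WT effect exceeded that in STINGgt/gt by 3.64 on the log2 scale for Cd80 (edgeR adjusted p = 4.35e-13), by 1.26 for Cd86 (9.867e-08), by 1.13 for Cd27 (2.015e-08) and by 0.66 for Tnfrsf18 (4.981e-06). It was below that in STINGgt/gt for Cd40lg (log2 difference -1.33, edgeR adjusted p = 3.947e-09), Tnfrsf8 (-1.14, 2.943e-07), Icos (-0.35, 0.0002557) and Cd28 (-0.24, 0.02959). The call of Cd28 was lost in 11 of 19 alternative settings, with an adjusted p of up to 0.09475. Among them were the settings without WT DMSO replicate 1 (Cd28 adjusted p 0.0684) or 3 (0.0795, where the log2 difference shrank to -0.14), WT CMA replicate 2 (0.0658), STINGgt/gt DMSO replicate 1 (0.07071) or 3 (0.07401), and STINGgt/gt CMA replicate 2 (0.09475) or 3 (0.05124). Tnfrsf9, which moved by a like amount in each genotype, had a log2 difference of 0.03 (95% confidence interval -0.11 to 0.18, edgeR adjusted p = 0.6865), and Tnfrsf4 one of 0.05 (-0.13 to 0.24, 0.6289).

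The genotypes already differed without CMA. This comparison shares its WT DMSO libraries with that of CMA in WT and its STINGgt/gt DMSO libraries with that of CMA in STINGgt/gt. With DMSO, 5 members were higher in WT (Tnfrsf8, Cd86, Tnfrsf9, Icos, Tnfrsf18) and 3 lower (Cd80, Cd40lg, Cd27), beside 22.9% and 19.8% of all genes tested. Tnfrsf8 was 9.12-fold higher in WT (log2 3.19, SE 0.0771, edgeR adjusted p = 7.305e-14), the 49th largest difference in this direction. Cd86 was 3.56-fold higher in WT (log2 1.83, SE 0.0819, edgeR adjusted p = 3.946e-11), and Tnfrsf9 1.35-fold (log2 0.43, SE 0.0485, edgeR adjusted p = 2.597e-06). Icos differed by 0.20 on the log2 scale (edgeR adjusted p = 0.002912) and Tnfrsf18 by 0.19 (0.01905). The call of Tnfrsf18 was lost in 6 of 20 alternative settings, among them those without WT DMSO replicate 1 (Tnfrsf18 adjusted p 0.05572) or 2 (0.09201, where the log2 difference shrank to 0.11) and without STINGgt/gt DMSO replicate 1 (0.0659) or 2 (0.06597). Cd80 was lower in WT by a log2 difference of -0.36 (edgeR adjusted p = 0.003799), Cd40lg by -0.35 (0.0003448) and Cd27 by -0.27 (0.003472).

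Many markers of other cells were also higher in WT, the direction of Tnfrsf8 and Cd86. With DMSO all 7 B cell markers were higher in WT (log2 0.46 for Ms4a1 to 1.60 for Cd79b), as were all 6 myeloid and dendritic cell markers tested, whose sum was 17.98 to 18.97 CPM in WT and 4.79 to 5.09 CPM in STINGgt/gt. CD8 T and natural killer cell markers summed to 74.7 to 79.2 CPM in WT and 53.2 to 61.2 CPM in STINGgt/gt, with 4 of 6 higher and 1 lower in WT. Of 4 regulatory T cell markers, the 2 higher in WT were Il2ra and Ctla4, which activated T cells express as well. These made up most of the markers' sum, 2292 to 2498 CPM in WT and 1607 to 1635 CPM in STINGgt/gt. Foxp3 (log2 0.16, edgeR adjusted p = 0.4925) and Ikzf2 (log2 0.18, edgeR adjusted p = 0.1874) did not pass the threshold. The part of these cells in the levels of Tnfrsf8, Cd86 and the other members was not tested.

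With CMA, 6 members were higher in WT than in STINGgt/gt and 3 lower, beside 37.0% and 36.5% of all genes tested, and Tnfrsf4 alone passed in neither direction (log2 0.09, edgeR adjusted p = 0.208). This comparison shares its libraries with the others. Cd80 was 9.70-fold higher in WT (log2 3.28, SE 0.0768, edgeR adjusted p = 1.519e-15) and Cd86 8.51-fold (log2 3.09, SE 0.0784, edgeR adjusted p = 4.035e-15). Tnfrsf8 was 4.13-fold higher (log2 2.05, edgeR adjusted p = 8.338e-13), Cd27 1.82-fold (2.045e-09), Tnfrsf18 1.80-fold (1.522e-09) and Tnfrsf9 1.38-fold (2.193e-07). Cd40lg was 3.20-fold lower in WT (log2 -1.68, edgeR adjusted p = 1.046e-12), while Cd28 and Icos were lower by log2 differences of -0.22 (0.005407) and -0.16 (0.007188). The call of Icos was lost without STINGgt/gt CMA replicate 3 (Icos adjusted p 0.05621). With DMSO, Cd80, Cd27 and Icos had differed between the genotypes in the opposite direction.

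**Figure D3:**
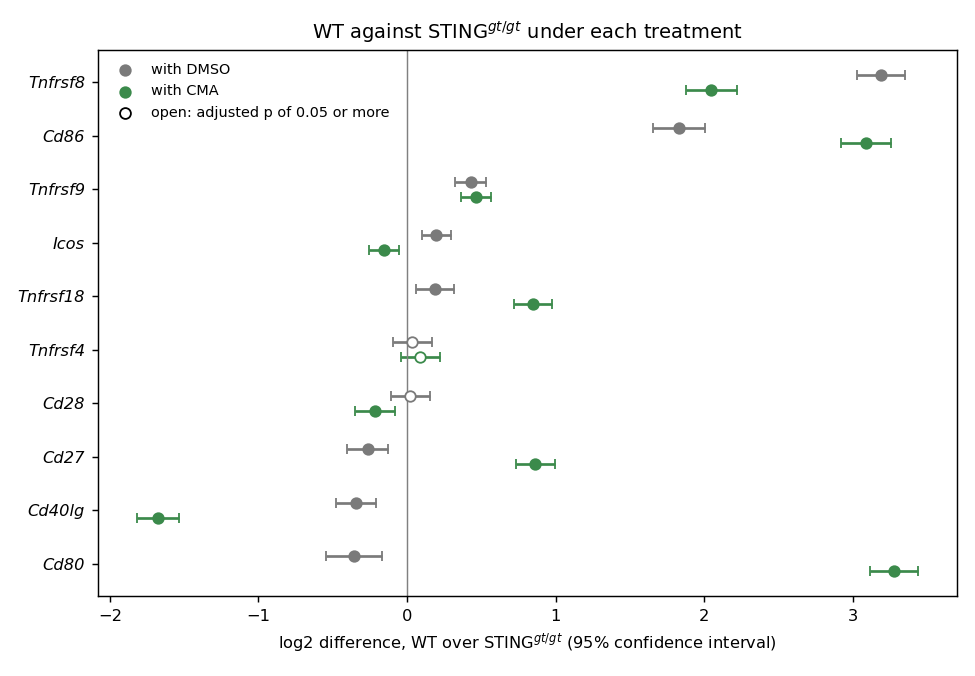
Log2 difference of WT over STINGgt/gt (horizontal axis) for each member with DMSO and with CMA, 3 libraries a group, with 95% confidence intervals from edgeR and filled points for an adjusted p under 0.05. With DMSO the values run from -0.36 for Cd80 to 3.19 for Tnfrsf8, and with CMA from -1.68 for Cd40lg to 3.28 for Cd80.

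The binding partners of the members were read from a list of 8 genes, of which 7 could be tested. All 7 are named here, a choice made after their values were seen. With CMA in WT 6 rose and 1 fell, and their median log2 change was 1.67, beside -0.04 over all genes tested, of which 33.0% were called higher and 37.4% lower. Tnfsf4, the ligand of OX40, rose from 1.56 ± 0.131 CPM to 148 ± 10.4 CPM (SD, n = 3, log2 6.56, SE 0.0838, edgeR adjusted p = 1.171e-18), while its receptor Tnfrsf4 did not pass the test. Cd70, the ligand of CD27, rose from 0.537 ± 0.190 CPM to 8.49 ± 1.05 CPM (log2 4.05, SE 0.22, edgeR adjusted p = 7.171e-11), and here receptor and ligand rose together. Tnfsf8, the ligand of CD30, rose (log2 1.32, edgeR adjusted p = 1.575e-12) as its receptor Tnfrsf8 fell.

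For CD40 and its ligand the sides were exchanged, with the receptor Cd40 higher (12.4 ± 1.06 to 39.4 ± 0.460 CPM, log2 1.67, edgeR adjusted p = 4.267e-12) and Cd40lg lower. Icosl, the ligand of ICOS, rose (log2 1.81, edgeR adjusted p = 4.036e-10) as Icos fell, and Tnfsf9, the ligand of 4-1BB, rose (log2 1.40, edgeR adjusted p = 3.861e-11). Ctla4, the inhibitory receptor for CD80 and CD86, fell by 0.18 on the log2 scale (edgeR adjusted p = 0.0007047). Tnfsf18, the ligand of GITR, had at most 2 reads in any library. Several of these partners are also made by B cells and dendritic cells, which the sort should have removed but whose markers were detected as given above, and the part of those cells was not tested.

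**Figure D4:**
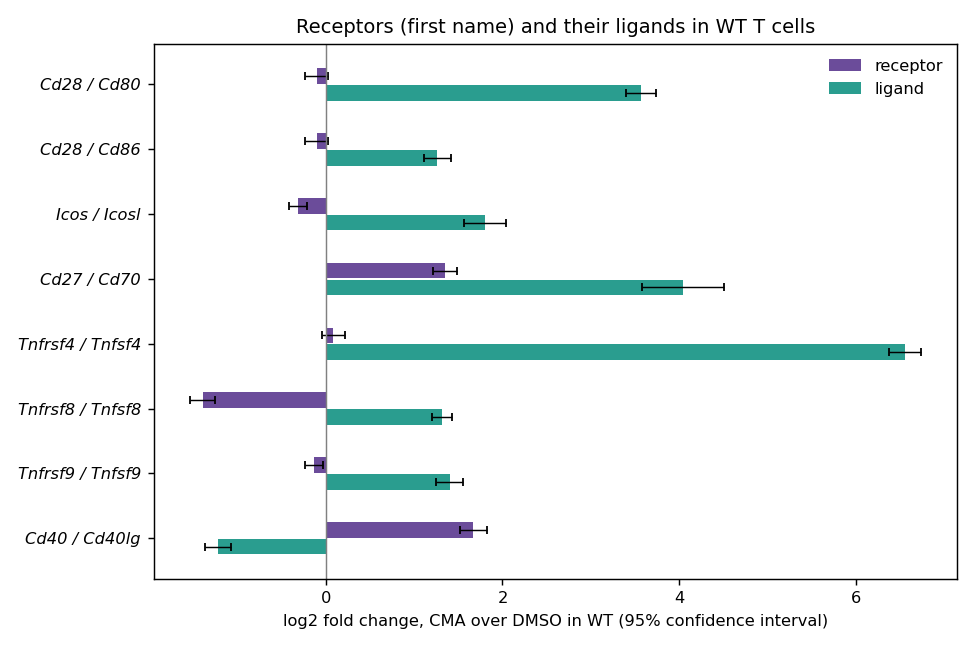
Log2 fold change of CMA over DMSO in WT cells (horizontal axis, bars from 0, lines for 95% confidence intervals from edgeR, 3 libraries a group) for members and their binding partners, with the receptor named first and the ligand second. Every ligand plotted except Cd40lg was higher with CMA, with Tnfsf4 the highest at 6.56, whereas of the receptors plotted Cd27 and Cd40 were higher and Tnfrsf8 the lowest at -1.39. Tnfrsf18, which also rose, is left out because its ligand Tnfsf18 could not be tested.

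In STINGgt/gt none of the 7 tested partners passed the threshold by edgeR, DESeq2 or limma, and 1 (Icosl) had an unadjusted p under 0.05. With DMSO, Tnfsf4 was lower in WT than in STINGgt/gt (1.56 ± 0.131 against 4.81 ± 0.176 CPM, log2 -1.62, edgeR adjusted p = 1.445e-08), the direction also seen for Cd80, whereas Cd40 was higher in WT (log2 1.21, edgeR adjusted p = 1.389e-08).

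Downstream of the TNF family receptors, 9 of 10 genes for TRAF adaptors and the non-canonical NF-kB pathway were higher with CMA in WT and none lower (median log2 0.37), beside the 33.0% higher and 37.4% lower over all genes tested. The same background holds for the next lists, whose shares lie near it. Nfkb2 and Relb, the subunits of the non-canonical pathway, rose most (log2 1.77 and 1.24), and the smallest rises past the threshold were those of Traf3 (0.23) and Traf6 (0.16). Genes of CD28 and ICOS proximal signalling were divided, with 5 of 13 higher and 6 lower, and the lowest log2 changes were those of Malt1 (-1.07), a protease of the NF-kB pathway, and the adaptor gene Grap2 (-0.60). Of 12 further costimulatory receptors 5 were higher and 5 lower, from Tnfrsf25 (1.03) and Slamf6 (0.63) to Cd226 (-0.65) and Cd84 (-1.18). In STINGgt/gt Slamf6 also rose (log2 0.42, edgeR adjusted p = 0.001453), as did Prkcq of the CD28 and ICOS list (log2 0.20, edgeR adjusted p = 0.04824), named after its value was seen, and none of the TRAF list passed by edgeR (1 TRAF list gene at an unadjusted p under 0.05, and none by DESeq2 or limma).

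The genes whose log2 CPM was most like that of Cd80 over the 12 libraries, among 11198 compared, were Uap1 (Pearson r = 0.9982), Ttyh3 (0.9976) and Gm11435 (0.9975). For Tnfrsf8 they were Gm17322 (0.9953), Cd8a (0.9932) and Zcchc24 (0.9932). Cd8a, a defining gene of CD8 T cells, stood at 22.8 ± 0.705 CPM in WT DMSO, 12.9 ± 0.824 in WT CMA, 5.43 ± 0.398 in STINGgt/gt DMSO and 5.48 ± 0.213 in STINGgt/gt CMA (SD, n = 3). Like Tnfrsf8, Cd8a was highest in WT DMSO and lower in WT CMA, where it fell by 0.83 on the log2 scale (edgeR adjusted p = 1.149e-08). It was 1 of 4 among the 6 CD8 T and natural killer cell markers called lower there. Cd8b1, the other CD8 gene, did not pass (log2 -0.14, edgeR adjusted p = 0.07676), and Eomes rose (log2 0.55, edgeR adjusted p = 0.0002284). With DMSO, WT exceeded STINGgt/gt by log2 2.07 for Cd8a and 0.87 for Cd8b1, while Eomes was lower in WT (-0.79). These correlations describe libraries that fall into 4 groups and share the same group structure.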

How the data were processed

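The libraries were made from polyadenylated RNA with a stranded kit (TruSeq Stranded mRNA). For each of the 12 libraries the authors deposited unnormalised read counts by Ensembl gene and a log2 expression table of 11921 genes, which equals log2 of the count plus 0.5 with 1 constant added per library. The submitters' processing notes name cutadapt 1.3, STAR 2.4.0f1, HTSeq 0.6.1, RSEM 1.2.16 and the build GRCm38, while annotation and strand setting are not given in the sources used here. CMA was used at 125 µg/ml, the study's methods giving the treatment as overnight. Reads on genes numbered 27414450 to 43784910 per library, and alignments that were not unique (27.8% to 30.3% of entries) were left out with the other tallies that name no gene.

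Counts were tested with edgeR 4.0.16 in R 4.3.3 (glmQLFit and glmQLFTest, TMM scaling, filterByExpr, 4 groups in a single model, two-sided, Benjamini-Hochberg adjustment over all 13811 genes tested, threshold 0.05). The standard error is the log2 change divided by the square root of F. No single-gene permutation test was run, since 3 libraries against 3 cannot give an exact p below 0.1. Alternatives were library-size scaling, DESeq2 1.42.0, limma 3.58.1 on the log2 table, other filters, the compared groups alone, a threshold of 0.01, a replicate block and leaving out each library. The members and gene lists were chosen with earlier results of these data known. Named were all members, of each pathway list the 2 highest and 2 lowest log2 changes in WT past the threshold, and the 3 genes most like Cd80 and Tnfrsf8 (log2 CPM, prior count 2, mean count of at least 50). Part of the genes named by it are not reported here. Positions are those of the deposited table, exon lengths and overlaps those of GENCODE M21. On simulated counts the model recovered 200 of 200 changed genes among 13580 for CMA in WT and called 20 unchanged ones. The simulation changed far fewer genes than were called in the data, and by more than the smallest member changes called. It therefore does not show how well such small changes are recovered.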

Additional observations from a re-analysis of the deposited data

Results flagged for a closer look

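The CMA effect differed between WT and STINGgt/gt for 8 of the 10 members by the interaction term of the edgeR model. Over all 13811 genes tested, 27.2% were called higher and 31.6% lower by this term, so most genes differed as well. The log2 difference, WT minus STINGgt/gt, was 3.637 for Cd80, 1.259 for Cd86, 1.13 for Cd27 and 0.6616 for Tnfrsf18, and it was -1.33 for Cd40lg, -1.144 for Tnfrsf8, -0.3524 for Icos and -0.2396 for Cd28. In WT each of these members except Cd28 also passed the threshold for CMA against DMSO, with non-overlapping groups. For Cd28 the WT and STINGgt/gt changes were -0.10 and 0.13, and neither passed on its own.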

How the results depend on the processing

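The 50 member values were recomputed under 20 alternatives, which gave 990 values. Of these, 939 kept direction and call, 28 lost the call, 14 gained it and 9 changed sign, none of the latter past the threshold. In STINGgt/gt the count of members called higher with CMA, 0 with the chosen model, was 1 with DESeq2, with no filter, with the compared groups alone and with the replicate block, and 0 to 1 when single libraries were left out. The count called lower, also 0, was 1 with DESeq2, with the compared groups alone and with the replicate block, and 0 to 1 when single libraries were left out. The genes were Cd27 and Tnfrsf9. The replicate block changed no other call. The deviations of libraries with the same number correlated at 0.00195 to 0.132 in WT and 0.0585 to 0.0634 in STINGgt/gt, so the numbers were not taken as pairs. The deposited library names share a leading digit between DMSO and CMA for every WT replicate, but not for every STINGgt/gt replicate. What this digit stands for is not stated in the study's methods. The replicate block followed the replicate number. Signs changed for Cd86 in STINGgt/gt with limma (-0.000688) and when libraries were left out (-0.05307 to 0.04228), and for Cd28 between genotypes with DMSO under library-size scaling (-0.00292) and when libraries were left out (-0.06967 to 0.1006). Leaving out libraries gave -0.01315 to 0.06717 for Tnfrsf4 in STINGgt/gt, -0.01034 to 0.1196 for Tnfrsf4 and -0.01248 to 0.07049 for Tnfrsf9 in the difference of the CMA effect, and -0.04199 to 0.1054 for Tnfrsf4 between genotypes with DMSO (log2). The cause was not tested. Depth limited little, since the lowest count of any member in a library was 226 reads (Tnfrsf8).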
